A study of Mus musculus with 8 samples.

Results

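The genes described here drive cell division. They were a list of 60 genes of DNA replication and mitosis, chosen by name with earlier results of these data known. Of these, 57 had a probe set in the liver arrays and 3 (Pcna, Cks2 and Stmn1) were not analysed here. Of the 57, 16 serve DNA replication, 6 control the passage from G1 into S phase and 35 serve mitosis, out of 16492 probe sets in all. The livers came from male C57BL/6 mice, 3 to 3.5 months old, of which 4 were wild type and 4 Amacr-/-, each labelled as a biological replicate with 1 array. Amacr encodes alpha-methylacyl-CoA racemase, which acts in bile acid synthesis and in the breakdown of branched-chain fatty acids. How the Amacr allele was made, which cells lack it, and whether the wild-type animals were littermates are not given in the sources used here.

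A dividing cell first licenses its replication origins with the MCM helicase, copies its DNA in S phase, and then separates the copies on the mitotic spindle. Replication genes are switched on at the G1 to S boundary largely through E2F transcription factors. Mitotic genes follow in G2 through the MuvB complexes with B-Myb and Foxm1, which act at a promoter element called the cell cycle genes homology region (CHR) and together with NF-Y at CCAAT boxes. Most hepatocytes of an adult liver are quiescent, and they re-enter the cycle after loss of tissue or injury. Whole liver was measured, so fewer cells of a type and less RNA per cell cannot be told apart.

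The promoters show how the replication and the mitosis genes differ in sequence. RefSeq promoter windows (GRCm38.p6, 250 bases before to 50 after the annotated start) were matched by gene ID for 47 of the 57 genes. The CHR letters TTTGAA or TTCGAA, on either strand, were in 24 of 30 mitosis promoters (80%), in 3 of 13 replication promoters (23.1%) and in 21.7% of the 27025 genes in the promoter table. An E2F site, searched as TTTCCCGC, TTTCGCGC, TTTGCCGC or TTTGGCGC on either strand, was in 7 of 13 replication promoters (53.8%), in 1 of 30 mitosis promoters (3.33%) and in 2.60% of all genes in the table. The letters CCAAT, on either strand, were in 23 of 30 mitosis promoters (76.7%) and 9 of 13 replication promoters (69.2%), against 41.1% of all genes in the table. A match is a description of letters and no measured binding site. The 4 windows below, cut at 30 bases after the start, are those of the mitosis gene with the widest spread between knockout arrays, a mitotic cyclin, a helicase subunit and the only gene of the list that passed the test. Capitals mark the CHR, CCAAT and E2F letters, 5′ to 3′.
Cdc20 promoter (GRCm38.p6, chr4:118437314-118437593, minus strand): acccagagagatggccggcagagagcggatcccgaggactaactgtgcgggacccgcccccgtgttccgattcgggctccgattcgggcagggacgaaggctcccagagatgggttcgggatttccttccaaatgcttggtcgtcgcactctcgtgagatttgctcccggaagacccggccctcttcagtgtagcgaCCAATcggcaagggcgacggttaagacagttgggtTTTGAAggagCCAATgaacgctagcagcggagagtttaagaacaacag
Ccnb2 promoter (GRCm38.p6, chr9:70421525-70421804, minus strand): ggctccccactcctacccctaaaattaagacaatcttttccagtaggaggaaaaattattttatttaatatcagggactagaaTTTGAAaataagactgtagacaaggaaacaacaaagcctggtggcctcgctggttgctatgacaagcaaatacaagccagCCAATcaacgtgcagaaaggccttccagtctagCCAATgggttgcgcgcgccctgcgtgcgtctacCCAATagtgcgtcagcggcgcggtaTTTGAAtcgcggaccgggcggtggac
Mcm6 promoter (GRCm38.p6, chr1:128359676-128359955, minus strand): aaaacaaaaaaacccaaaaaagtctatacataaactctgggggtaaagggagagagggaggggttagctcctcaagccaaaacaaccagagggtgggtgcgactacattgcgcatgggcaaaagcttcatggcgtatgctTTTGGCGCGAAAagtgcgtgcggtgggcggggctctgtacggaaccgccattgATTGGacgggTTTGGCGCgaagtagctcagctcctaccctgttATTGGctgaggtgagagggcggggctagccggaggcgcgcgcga
Ung promoter (GRCm38.p6, chr5:114130185-114130464, plus strand): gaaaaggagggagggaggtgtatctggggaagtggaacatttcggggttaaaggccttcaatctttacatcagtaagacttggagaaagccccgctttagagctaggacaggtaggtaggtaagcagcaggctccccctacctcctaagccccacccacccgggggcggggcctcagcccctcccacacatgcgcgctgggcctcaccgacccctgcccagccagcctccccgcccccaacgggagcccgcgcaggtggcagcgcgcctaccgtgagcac
The Cdc20 window holds 1 CHR and 2 CCAAT matches, and the Ccnb2 window 2 CHR and 3 CCAAT matches. The Mcm6 window holds 3 E2F matches, a pair of which overlap on opposite strands, and 2 CCAAT matches. None of these letters is in the Ung window.

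The deposited log2 values went with the genotype labels. Amacr was 11.68 to 12.06 in the 4 wild-type arrays and 5.23 to 5.52 in the 4 knockout arrays. Array medians lay between 6.62 and 6.66. Hepatocyte markers such as Alb and Ttr were high in every array, and the log2 of the summed level of 8 measured markers was 17.1 to 17.2 in both groups. Division genes gave low signals, with 45 of the 57 wild-type means below the median of the table, 6.65, and how much of a low signal is background was not tested. Knockout replicate 2 stood apart from the other arrays in these genes, so results are given with and without it.

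Across the list the genotypes differed for 1 gene. Ung passed the limma test at an adjusted p under 0.05, and 0 of the other 56 did, against 19 of 16492 probe sets (0.115%). Knockout and wild-type values did not overlap for 2 genes, Ung and Cdkn1a, where 6.67% of all probe sets did not overlap. With all arrays, 3 of the 57 had an unadjusted p under 0.05, a smaller share than the 11.3% of all probe sets. The median log2 difference between knockout and wild type was 0.13 for replication genes and 0.34 for mitosis genes, against 0.02 for all probe sets. Of the mitosis genes 34 of 35 had a higher knockout mean, and of the replication genes 13 of 16, where 9132 of 16492 probe sets had one. These means were set by knockout replicate 2. Without it the medians were -0.14 for replication and -0.08 for mitosis, and 23 of 35 mitosis genes and 11 of 16 replication genes had a lower knockout mean. For all probe sets the median was then 0.03, and 6971 of 16492 had a lower knockout mean. Without that array 39 probe sets (0.236%) passed, Ung again the only one in the list. An unadjusted p under 0.05 was then reached by 14 of the 57, a larger share than the 3065 of 16492 probe sets.

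The spread between the knockout arrays was the main feature of these genes. The SD over the knockout arrays exceeded that over the wild-type arrays in 55 of 57 genes, with Cenpf and Kif4 the exceptions, where 66.7% of all probe sets showed the same. The median SD of a mitosis gene was 0.87 in knockout and 0.16 in wild type, and that of a replication gene 0.50 and 0.11. For all probe sets the median SDs were 0.14 and 0.11. Without knockout replicate 2 the knockout SD was the larger in 27 of 57 genes, and the median knockout SD was 0.10 for mitosis and 0.13 for replication genes. For all probe sets the median SD was then 0.11 in knockout and 0.11 in wild type. The knockout SD then came from fewer arrays than the wild-type SD. A pair of knockout arrays differed by a median of 0.10 to 0.12 over the mitosis genes where replicate 2 was not in the pair, and by 1.71 to 1.75 where it was. For replication genes the same medians were 0.12 to 0.18 and 0.995 to 1.04. Wild-type pairs differed by 0.11 to 0.25 over mitosis genes and by 0.07 to 0.21 over replication genes.

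Knockout replicate 2 had the highest value of the 8 arrays in 53 of 57 genes, against 16.7% of all probe sets. All 35 mitosis genes and 14 of 16 replication genes were among them, and Cdc45, Ung, Ccne1 and E2f8 were not. In 30 of the 57 genes it exceeded every other array by at least 1 on the log2 scale, which is 2-fold, and 111 of 16492 probe sets (0.673%) did so. By class these were 24 of 35 mitosis genes, 6 of 16 replication genes and 0 of 6 G1 to S genes. No other array exceeded all the rest by that much in any gene of the list. Measured from each gene's wild-type mean, the median in knockout replicate 2 was 1.58 for mitosis and 1.02 for replication genes. In the other knockout arrays it lay between -0.08 and -0.04 for mitosis and between -0.19 and -0.08 for replication, and in the wild-type arrays between -0.12 and 0.05 for mitosis and between -0.11 and 0.04 for replication.

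**Figure D1:**
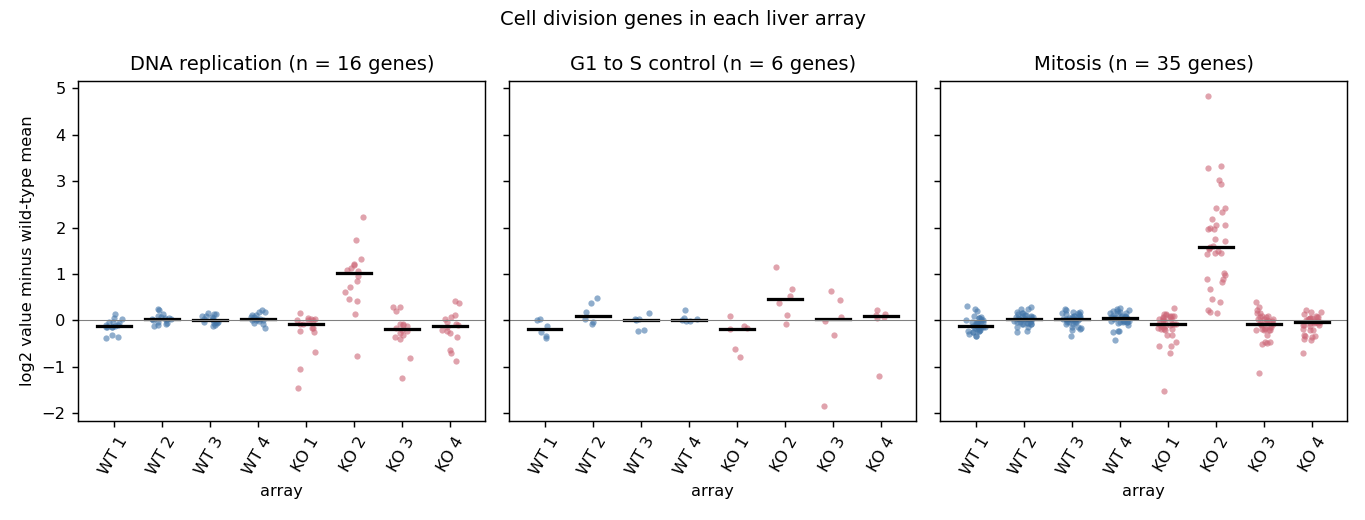
Log2 value of each gene minus its wild-type mean (vertical axis) in the 4 wild-type (WT, blue) and 4 knockout (KO, red) arrays, with 1 point per gene and a bar at the class median. In knockout replicate 2 the medians are 1.02 for replication and 1.58 for mitosis, and in every other array they lie between -0.19 and 0.05 for both classes.

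Among the helicase genes, Mcm2 to Mcm7 encode the ring that is loaded on origins and later unwinds the DNA. Mcm6 was 4.83, 5.24, 5.31 and 5.44 in the wild-type arrays and 4.53, 7.44, 3.96 and 4.51 in the knockout arrays, each in the order of replicates 1 to 4 as for all genes here. It lay above every wild-type array in knockout replicate 2 and below every wild-type array in the other 3. The log2 difference between the groups was -0.10 (SE 0.65, limma adjusted p = 0.965), and without knockout replicate 2 it was -0.87 (SE 0.18, adjusted p = 0.102). Mcm5 was 5.06, 5.16, 5.26 and 5.26 in wild type and 4.95, 6.50, 4.82 and 4.98 in knockout. The order was that of Mcm6, with replicate 2 above and the other 3 knockout arrays below all wild-type arrays. The gap between knockout replicate 2 and the mean of the other knockout arrays was 3.11 for Mcm6 (8.61-fold), 1.58 for Mcm5, 1.37 for Mcm4, 1.28 for Mcm2, 1.14 for Mcm7 and 0.86 for Mcm3. The subunits of the same ring thus differed from each other in this gap.

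Loading and firing factors varied less. Cdt1, which brings the helicase to origins, was 6.62, 7.03, 7.11 and 7.16 in wild type and 7.02, 7.94, 7.26 and 7.35 in knockout. Its log2 difference of 0.41 (SE 0.20, limma adjusted p = 0.468) did not pass, and the groups overlapped through knockout replicate 1. Gins2, a subunit of the GINS complex that activates the helicase, was 5.05, 5.26, 5.24 and 5.22 in wild type and 5.21, 6.04, 5.40 and 5.31 in knockout, again with replicate 2 the highest. Its difference was 0.30 (SE 0.17, adjusted p = 0.534). Cdc6, which loads the helicase with Cdt1, and Gins1 had gaps of 0.46 and 0.81 in knockout replicate 2. Cdc45, the partner of MCM and GINS in the working helicase, was the only replication gene with a lower value in that array than the mean of the other knockout arrays, by -0.12. Its highest values were 6.16 in knockout replicate 4 and 6.02 in replicate 3.

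Rrm1 and Rrm2 form the ribonucleotide reductase that makes deoxynucleotides, and Tyms makes thymidylate. Rrm2 was 7.02, 7.35, 7.5 and 7.46 in wild type and 5.88, 9.06, 6.93 and 6.47 in knockout. It thus had both its highest and its lowest values in knockout arrays, replicates 2 and 1. Its log2 difference was -0.25 (SE 0.57, limma adjusted p = 0.895) and without replicate 2 it was -0.91 (SE 0.23, adjusted p = 0.133). The gap of replicate 2 was 2.63 for Rrm2, 1.26 for Rrm1 and 0.39 for Tyms. Uhrf1, which copies DNA methylation onto the new strand, was 5.14, 4.98, 5.19 and 5.10 in wild type and 4.94, 6.29, 4.83 and 4.88 in knockout, with a difference of 0.13 (SE 0.29, adjusted p = 0.889). Here too replicate 2 was above and the other 3 knockout arrays below every wild-type array.

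Ung and Cdc45 were the replication genes that were not highest in knockout replicate 2, and Ung alone of the list passed the test. It encodes uracil-DNA glycosylase, which removes uracil that was built into DNA in place of thymine or that arose from cytosine, and starts base excision repair. Ung was 7.01, 7.33, 7.05 and 7.03 in wild type and 6.06, 6.33, 6.29 and 6.48 in knockout. Every knockout array, replicate 2 included, lay below every wild-type array, and replicate 2 was 0.05 above the mean of the other knockout arrays. Ung fell from 7.10 ± 0.15 to 6.29 ± 0.17 (SD, 4 arrays per genotype). The log2 difference was -0.81 (SE 0.11, 95% confidence interval -1.06 to -0.57, limma adjusted p = 0.0400), or 1.76-fold. The exact two-sided permutation p was 0.0286, the smallest that 4 arrays against 4 can give. The call was kept without knockout replicate 2 (adjusted p = 0.0436). It was lost without wild-type replicate 1, 2, 3 or 4 (0.108, 0.109, 0.141 and 0.0654) and without knockout replicate 1, 3 or 4 (0.0728, 0.0989 and 0.0525), and over 15 alternatives the difference ranged from -0.88 to -0.74.

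Other genes of base excision repair did not pass with Ung. Of 14 measured, 0 passed in either direction, with a median log2 difference of 0.04 and 2 genes past an unadjusted p of 0.05, near the 11.3% of all probe sets. Xrcc1, the scaffold of the repair complex, was 7.65 to 7.73 in wild type and 7.90 to 8.0 in knockout, without overlap, a difference of 0.25 (SE 0.06, limma adjusted p = 0.155). Polb, the polymerase that fills the gap, was 8.12 to 8.21 in wild type and 8.28 to 8.44 in knockout, a difference of 0.20 (SE 0.06, adjusted p = 0.279). Both had higher and not lower knockout values. Apex2, an endonuclease of the pathway, was 6.63 to 6.84 in wild type and 6.23, 6.26, 6.65 and 6.63 in knockout, a difference of -0.25 (SE 0.11, adjusted p = 0.454).

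**Figure D2:**
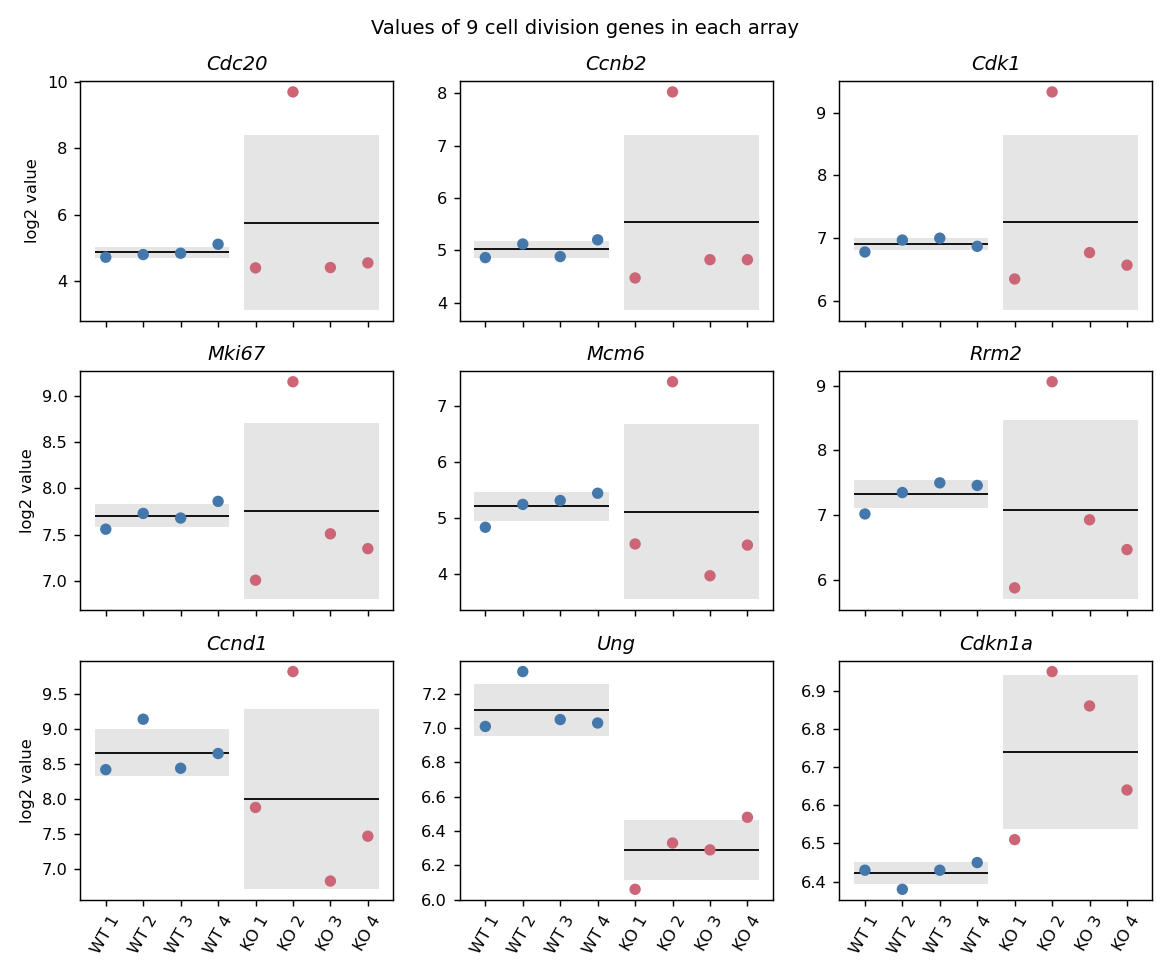
Log2 values (vertical axis, a separate scale for each gene) of 9 genes in the 4 wild-type (WT, blue) and 4 knockout (KO, red) arrays, with a line at each group mean and a band of 1 SD. Cdc20, Ccnb2, Cdk1, Mki67, Mcm6, Rrm2 and Ccnd1 are highest in knockout replicate 2, whereas all 4 knockout values of Ung lie below, and all 4 of Cdkn1a above, the wild-type values.

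Of the genes that control entry into S phase, Ccnd1 encodes cyclin D1, which growth signals induce in hepatocytes. Ccnd1 was 8.42, 9.14, 8.44 and 8.65 in wild type and 7.88, 9.82, 6.83 and 7.47 in knockout. Replicate 2 was the highest array and the other 3 knockout arrays lay below all wild-type arrays, with replicate 3 the lowest. The log2 difference was -0.66 (SE 0.54, limma adjusted p = 0.675), and without replicate 2 it was -1.27 (SE 0.26, adjusted p = 0.0987). Ccne2, a cyclin E that acts with Cdk2, was 3.79, 4.55, 3.96 and 4.39 in wild type and 3.55, 4.84, 3.86 and 4.25 in knockout, so the groups overlapped. E2f8, a repressor among the E2F factors, was 5.09, 5.59, 5.57 and 5.41 in wild type and 5.26, 5.80, 6.06 and 5.55 in knockout, with its highest value in replicate 3. Neither differed between the genotypes by the test, with log2 differences of -0.05 (SE 0.27, adjusted p = 0.957) and 0.25 (SE 0.18, adjusted p = 0.617). Ccne1 and the activator E2f1 differed by -0.02 and 0.01, with a gap of replicate 2 of -0.08 and 0.15.

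Cdkn1a encodes p21, an inhibitor of cyclin-dependent kinases and a p53 target. It was 6.43, 6.38, 6.43 and 6.45 in wild type and 6.51, 6.95, 6.86 and 6.64 in knockout. All 4 knockout values were above all wild-type values, with replicate 2 the highest. The log2 difference of 0.32 (SE 0.10, limma adjusted p = 0.270) did not pass over all probe sets, and its adjusted p over 14 alternatives ranged from 0.174 to 0.537. Of 17 other p53 targets measured, 0 passed, with a median log2 difference of -0.04. Gadd45a, a stress-induced growth arrest gene, was 9.34, 8.19, 7.82 and 7.42 in wild type and 7.05, 7.27, 6.44 and 6.50 in knockout, so it lay in the other direction without overlap (difference -1.38, SE 0.38, adjusted p = 0.221). Bbc3, a p53-induced death gene, was 7.37 to 7.64 in wild type and 7.65 to 7.87 in knockout, and Phlda3 was 6.76 to 6.93 and 6.90 to 6.99.

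Of 18 other cell cycle inhibitors, pocket proteins, E2F factors and kinases, 0 passed, with a median log2 difference of -0.02. Cdkn2c, the inhibitor p18 of Cdk4 and Cdk6, was 7.38 to 7.64 in wild type and 7.89, 8.97, 7.99 and 7.67 in knockout. Replicate 2 was again the highest, and the groups did not overlap (difference 0.65, SE 0.24, limma adjusted p = 0.362). E2f7, the partner of E2f8, was 4.60 to 5.02 in wild type and 5.12 to 5.26 in knockout (difference 0.35, SE 0.09, adjusted p = 0.211). Wee1, a kinase that holds Cdk1 inactive, was 8.07 to 8.27 in wild type and 7.08, 7.06, 8.0 and 8.01 in knockout. Its low values were those of replicates 1 and 2, a split of the knockout arrays unlike that of the mitosis genes (difference -0.62, SE 0.23, adjusted p = 0.354).

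The kinase Cdk1 and its cyclins drive entry into mitosis. Cdk1 was 6.78, 6.97, 7.0 and 6.87 in wild type and 6.35, 9.33, 6.77 and 6.57 in knockout. Replicate 2 was 2.77 above the mean of the other knockout arrays (6.81-fold), and those 3 arrays were below every wild-type array. Ccnb2, a B-type cyclin whose promoter is printed above, was 4.86, 5.12, 4.88 and 5.20 in wild type and 4.47, 8.03, 4.82 and 4.82 in knockout. The same order held, with a gap of 3.33 or 10.0-fold. Mki67, the proliferation marker Ki-67, was 7.56, 7.73, 7.68 and 7.86 in wild type and 7.01, 9.15, 7.51 and 7.35 in knockout, once more with replicate 2 above and the other knockout arrays below all wild-type arrays. With all 8 arrays the log2 differences were 0.35 for Cdk1 (SE 0.57), 0.52 for Ccnb2 (SE 0.69) and 0.05 for Mki67 (SE 0.39), with limma adjusted p of 0.848, 0.812 and 0.971. Without replicate 2 they were -0.34, -0.31 and -0.42, with adjusted p of 0.176, 0.237 and 0.166. The gap of replicate 2 was 2.65 for Ccna2, 2.41 for Cdkn3, a phosphatase of Cdk1, 1.56 for Ccnb1 and 1.02 for Melk. Foxm1, the transcription factor of G2 and M phase genes, had a gap of 0.17, with 5.94 in replicate 2 against 5.66 to 5.86 in the other arrays.

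Cdc20 activates the anaphase-promoting complex, and had the widest gap. It was 4.72, 4.8, 4.84 and 5.11 in wild type and 4.40, 9.69, 4.41 and 4.55 in knockout. Replicate 2 was 5.24 above the mean of the other knockout arrays, or 37.7-fold, second in size among the 16492 probe sets. The log2 difference of 0.89 (SE 1.07, 95% confidence interval -1.52 to 3.31, limma adjusted p = 0.788) therefore rested on 1 array, and without it the difference was -0.41 (SE 0.10, adjusted p = 0.122). Birc5, survivin of the chromosomal passenger complex, was 4.64, 5.05, 5.03 and 5.17 in wild type and 4.76, 8.25, 4.66 and 5.11 in knockout, where only replicate 2 lay outside the wild-type range. Its difference was 0.72 (SE 0.71, adjusted p = 0.732) with all arrays and -0.13 (SE 0.15, adjusted p = 0.655) without replicate 2. The gap of replicate 2 was 3.24 for Ube2c, the ubiquitin-conjugating enzyme of the same anaphase complex, and 1.01 to 1.87 for the kinases and checkpoint proteins Aurka, Aurkb, Bub1, Bub1b and Ttk. Plk1, a kinase of mitotic entry, had the smallest gap of these 9 genes, 0.49.

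Chromosome and kinetochore genes had gaps from 0.09 for Cenpf to 2.66 for Spc25. Top2a, the topoisomerase that untangles sister chromatids, was 4.54, 4.98, 4.40 and 5.01 in wild type and 5.0, 6.70, 5.12 and 4.92 in knockout. Replicate 2 was the highest and the other 3 knockout arrays lay inside or just above the wild-type range (difference 0.70, SE 0.37, limma adjusted p = 0.513, and 0.28, SE 0.16, adjusted p = 0.366 without replicate 2). Subunits of the NDC80 complex, which binds kinetochores to microtubules, differed among themselves. The gap was 2.66 for Spc25, 2.09 for Nuf2 and 0.46 for Ndc80. Nuf2 was 3.65, 3.55 and 3.74 in knockout replicates 1, 3 and 4, below the 5th percentile of those arrays (3.77 to 3.82). The size of its gap thus rests on signals at the low end of the scale. Cenpa, the histone H3 variant of centromeres, had a gap of 1.75, and Cenpe, a kinetochore motor, one of 0.59.

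The 11 genes of the spindle and of cytokinesis were all highest in knockout replicate 2, and in the other knockout arrays only Kif20a lay below every wild-type array. Ect2, which activates RhoA for the cleavage furrow, was 3.58, 4.08, 3.91 and 3.72 in wild type and 3.65, 7.14, 3.34 and 3.62 in knockout. Replicate 2 was 3.60 above the mean of the other knockout arrays, whose values were below the 5th percentile of all probe sets on those arrays (3.77 to 3.82), so the size of this gap rests on signals at the low end of the scale. The group difference was 0.62 (SE 0.74, limma adjusted p = 0.790), or -0.29 (SE 0.13, adjusted p = 0.287) without it. Anln and Racgap1, further proteins of the furrow, had gaps of 2.18 and 1.73. Spindle proteins had gaps of 1.87 for Hmmr, 1.71 for Nusap1, 1.66 for Prc1 and 0.85 for Tpx2. Among the kinesin motors the gap was 2.19 for Kif20a, 0.95 for Kif11, 0.74 for Kif2c and 0.10 for Kif4. By role, the median gap was 2.13 for the mitotic cyclins, Cdk1, its partners and Foxm1, with Mki67, Cdkn3 and Melk counted among them. The median gap was 1.85 for kinases, checkpoint and anaphase, 1.69 for chromosome and kinetochore, and 1.71 for spindle and cytokinesis. It was 0.86 for helicase loading and firing, 1.26 for nucleotide supply and 0.23 for G1 to S control, against -0.06 for all probe sets.

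**Figure D3:**
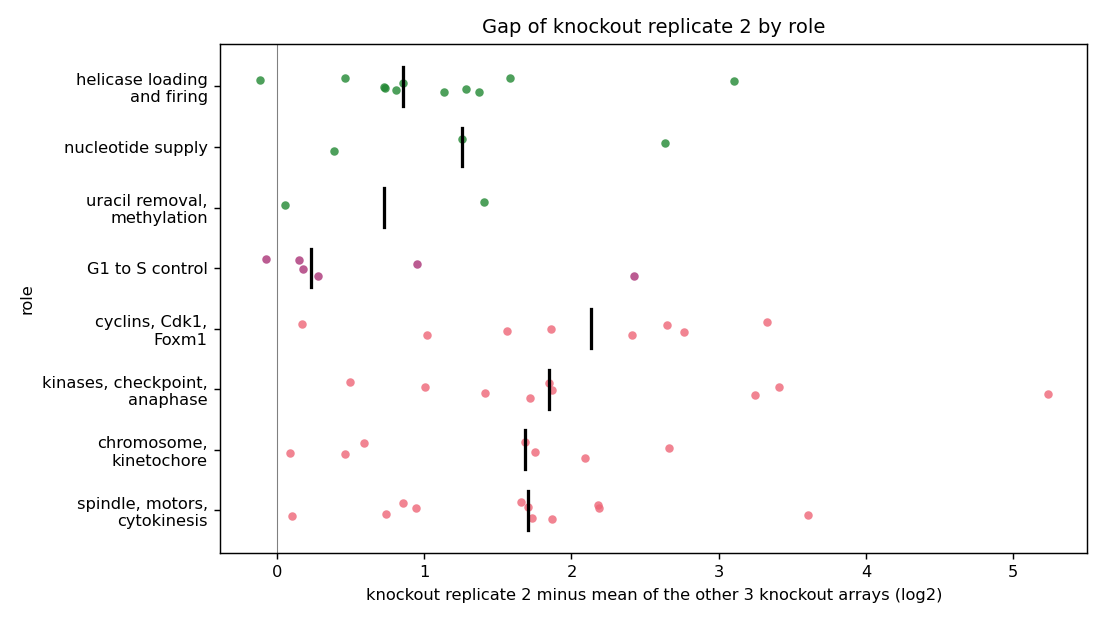
Log2 value in knockout replicate 2 minus the mean of the other 3 knockout arrays (horizontal axis) for each of the 57 genes, grouped by role (vertical axis), with a bar at the median of each role. The gap reaches 5.24 for Cdc20 among the mitosis genes (red) and 3.11 for Mcm6 among the replication genes (green), and its median is 0.23 for the G1 to S genes (purple).

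The other knockout arrays lay low in part of the list. Knockout replicates 1, 3 and 4 were all below every wild-type array in 15 of 57 genes, against 6.03% of all probe sets. These were 7 of 16 replication genes (Mcm3, Mcm5, Mcm6, Rrm1, Rrm2, Uhrf1 and Ung), 7 of 35 mitosis genes (Cdk1, Cdc20, Ccnb2, Mki67, Kif20a, Ndc80 and Spc25) and Ccnd1. Of the 15, only Ung passed the limma test without replicate 2, and the next in order were Ccnd1, Mcm6 and Spc25 with adjusted p of 0.0987, 0.102 and 0.103. These 3 arrays also differed from each other in single genes, as in Spc25. It was 5.75, 6.13 and 6.56 in replicates 1, 3 and 4, below the wild-type range of 6.85 to 7.58.

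**Figure D4:**
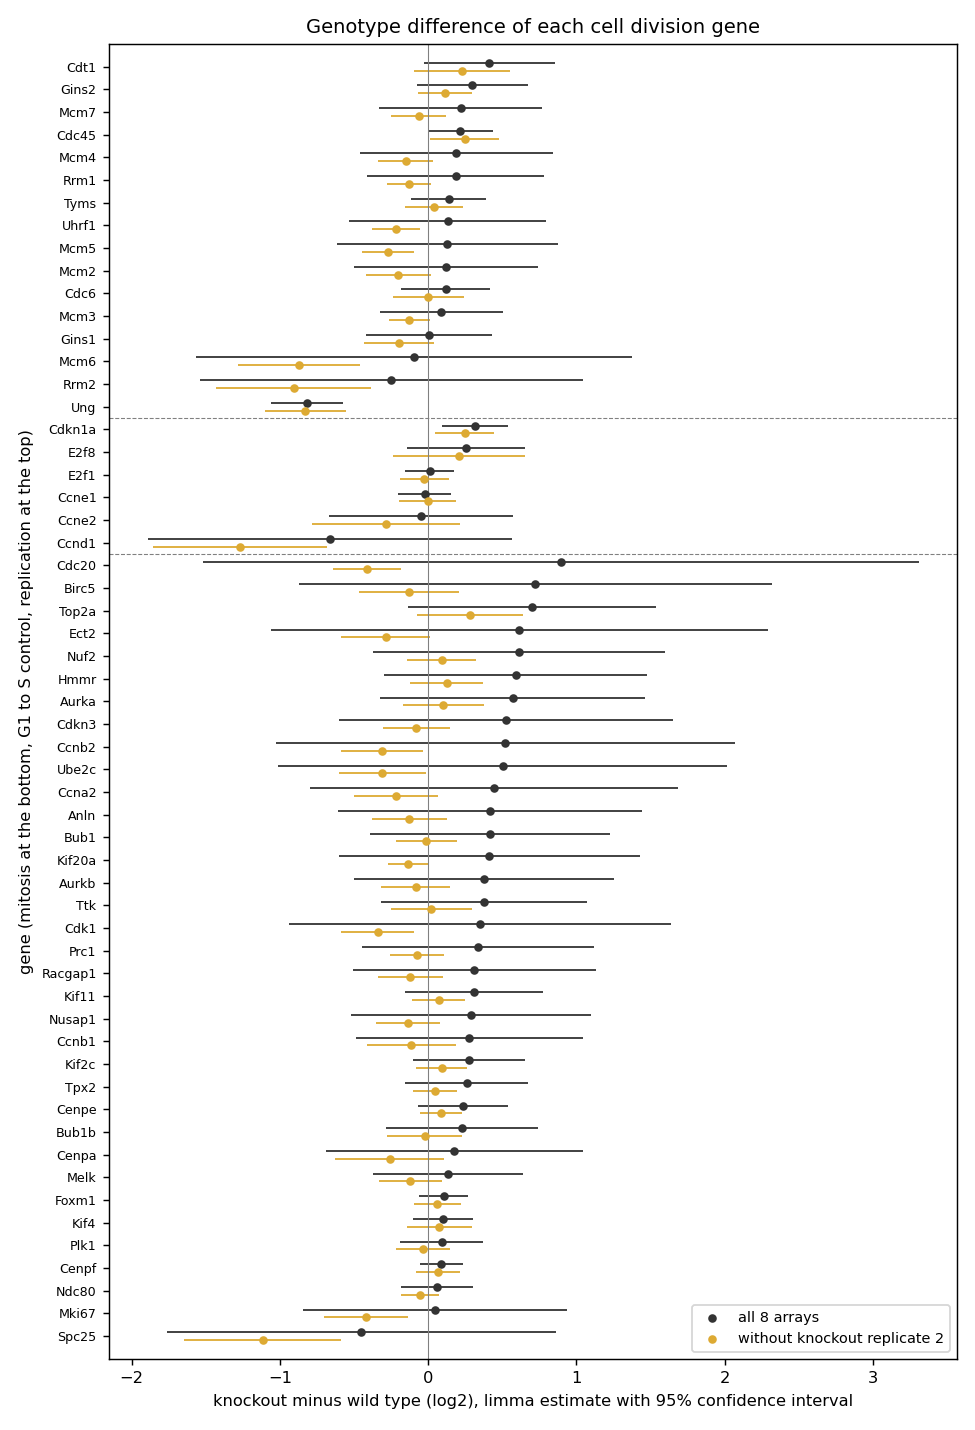
Log2 difference between knockout and wild type (horizontal axis) for each of the 57 genes, with the limma 95% confidence interval, from all 8 arrays (black) and without knockout replicate 2 (yellow). Without that array the interval narrows for 51 of 57 genes, not for Ung, Cdc45, Ccne1, E2f8, Cenpf and Kif4, and 22 of 35 mitosis genes move from above to below 0, whereas Ung is at -0.81 and -0.83.

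Many but not all further genes of the same pathways, from lists of other replication and mitosis genes, were highest in the same array. Of 27 other mitosis genes 0 passed, and 21 were highest in knockout replicate 2, 7 of them by at least 1 over every other array. Pbk, a mitotic kinase, was 4.10 to 4.47 in wild type and 4.57, 7.20, 4.16 and 4.24 in knockout. Cdca3, a trigger of mitotic entry, was 5.66 to 6.19 in wild type and 6.07, 8.54, 6.27 and 6.30 in knockout. The list's 3 genes with the lowest p were Cenpn, Dlgap5 and Hjurp, with log2 differences of 0.21 (SE 0.09), 0.25 (SE 0.10) and -0.24 (SE 0.11) and limma adjusted p of 0.389 to 0.443. Of 35 other replication genes 0 passed, and 20 were highest in replicate 2, 2 of them by at least 1 (Dbf4 and Prim1). The lowest p there were those of Mcm10, Rpa1 and Prim2, with differences of -0.36 (SE 0.15), 0.24 (SE 0.11) and 0.17 (SE 0.09). Mcm10 had its lowest value of all arrays in replicate 2, 8.99. The same held for Orc1 (5.85), Ticrr (5.66) and, of the mitosis list, Cit (5.57). The median difference was 0.14 for the mitosis and 0.03 for the replication list, and -0.04 and -0.06 without replicate 2.

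Markers of other liver cells were measured beside these genes, and 0 passed in any list. In knockout replicate 2, 4 of 6 cholangiocyte markers exceeded every other array, and the log2 of their summed level reached 12.2, where wild type spanned 10.1 to 11.3 and the remaining knockout arrays 10.3 to 11.2. Spp1, at 12.10 in replicate 2, made up nearly all of this sum, and the other 5 markers were 5.04 to 6.99 there. Of the stellate and fibroblast markers 5 of 7 were highest there, with a summed level of 12.6 against 11.78 to 11.96 in the other knockout arrays and 11.9 to 12.1 in wild type. The widest gap to the other knockout arrays was that of Col3a1, 2.00, and the median over the 7 markers was 0.65. Des and Reln were not highest there, with gaps of -0.24 and 0.39. Of the oncofetal markers 2 of 5 were highest there, with a summed level of 9.17 against 7.78 to 7.93 and 7.56 to 7.67. That sum was carried by Afp, at 8.62, and the median gap of the 5 markers to the other knockout arrays was -0.22, with Igf2, Gpc3 and Dlk1 lower in replicate 2. The part of these cells in the division genes was not tested. Hepatocyte markers had a summed level of 17.2 in replicate 2 and 17.1 in the other knockout arrays. Of the lymphocyte markers 1 of 11, Ighm, was highest in replicate 2 (summed level 10.9 against 9.61 to 10.3 and 9.79 to 10.6), and of the endothelial markers 1 of 8. No Kupffer cell, neutrophil or erythroid marker, of 10, 6 and 6 measured, was highest in that array. The median Kupffer cell marker, less its wild-type mean, was 0.14, 0.00, -0.66 and -1.09 in knockout replicates 1 to 4 and -0.50 to 0.45 in wild type. Log2 array values have no 0, so none of these markers can be called absent.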

How the data were processed

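Liver RNA of 4 wild-type and 4 Amacr-/- mice was hybridised to 8 arrays. The authors deposited 1 table of log2 values, written with 2 decimals, made with RMA per the submitters' processing notes. RMA corrects background, normalizes between arrays and summarises probes, so a shift of all genes would not be seen. Array type, version and filters are not given in the sources used here, and the table has no detection calls or scan dates, so background and batch were not tested. Probe set IDs are Entrez gene numbers, matched to symbols through RefSeq for all 60 genes, and 64 array controls were left out. Symbols without a probe set row were not used here.

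The test of genotype, its only term, was two-sided and used lmFit and eBayes of limma 3.58.1 under R 4.3.3, and p-values were Benjamini-Hochberg adjusted over 16492 probe sets with a threshold of 0.05. The median standard error was 0.09 over all probe sets. Over the members it was 0.29, with 0.37 for mitosis and 0.22 for replication genes, so their differences were estimated less precisely. The number of arrays limits the precision. The fit was tested on simulated data. Alternatives were each array left out, knockout replicate 2 with wild-type replicate 4 left out, the replicate number as a block, array weights, an intensity trend, a filter at the table median, controls kept and quantile normalization. Members, classes and lists were chosen with earlier results of these data known. Values in every array were given for members past the threshold, up to 4 per class without overlap, with the largest differences and with the largest knockout SD, and for a few fixed genes. Other genes were chosen after their values were seen, save the 3 lowest p of a list.

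No 2 arrays were identical. Deviations from the group mean correlated between same-numbered arrays with r of 0.05, -0.03, 0.09 and -0.12. Between differently numbered arrays r ranged from -0.18 to 0.16. The values thus gave no sign of pairing by number, but they cannot exclude it.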

Additional observations from a re-analysis of the deposited data

Results flagged for a closer look

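Arrays far from the others of their group of 4 were sought among the 18 members given array by array, Amacr and the class medians, by the share of the group's range that lies between the extreme array and its neighbour. Dixon's critical value for that share was passed in 15 of 44 groups of arrays. Chance flags about 1 in 20 groups, but the members were partly chosen for a large knockout SD or difference and share their arrays, so the count is a description and is not set against that rate. In knockout replicate 2 the share was 0.972 for Cdc20, 0.925 for Uhrf1, 0.918 for Ect2, 0.905 for Mcm5, 0.902 for Ccnb2, 0.888 for Top2a, 0.875 for Birc5, 0.859 for Cdk1 and 0.836 for Mcm6. For the class medians in that array it was 0.976 for mitosis and 0.909 for replication. Wild-type replicate 1 stood below the other wild-type arrays in the class medians, with shares of 0.857 for mitosis and 0.874 for replication, although its median deviations were -0.12 and -0.11 on the log2 scale. Ung was high in wild-type replicate 2 (0.875) and Amacr low in wild-type replicate 4 (0.921). Over all 57 members the critical value was passed in 30 genes in the knockout arrays and in 2 in the wild-type arrays, against 5.59% and 5.85% of all probe sets.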

How the results depend on the processing

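The count of 19 probe sets past the threshold ranged from 2 to 39 when single arrays were left out. It was 39 with wild-type replicate 4 and knockout replicate 2 both left out, 1 with the replicate block, 75 with array weights, 53 with the filter on low values and 38 after quantile normalization. The count of members called ranged from 0 to 1 with single arrays left out, and was 0 without both arrays and 0 with the block. The Ung difference ranged from -0.88 to -0.74 with single arrays left out. It was -0.85 without both arrays (limma adjusted p = 0.0711) and -0.81 with the replicate block (adjusted p = 0.140), each past the threshold no longer, and Ung passed in 6 of 15 alternatives. Why the call was lost was not tested. Leaving arrays out or adding the block also lowers the number of arrays or of residual degrees of freedom. The number of members with the larger SD in knockout, 55 of 57, ranged from 27 to 56 with single arrays left out, was 29 without both arrays, and was 12 of the 12 members that passed the filter on low values. The medians of the classes changed sign without knockout replicate 2, as given above, and were -0.04 for replication and 0.07 for mitosis with array weights, which give deviating arrays less weight. Leaving out both arrays gave -0.13 and -0.06. The filter on low values left 5 genes in each of these classes, with medians of 0.18 for replication and 0.09 for mitosis, the opposite order to that of all members. Quantile normalization, for these counts an alternative chosen after seeing the data, left 53 members highest in knockout replicate 2. It left 30 members at least 1 above all other arrays there, and both counts were unchanged. Low signals limit how far the division genes can be read downwards, since background was not measured.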

Other observations

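Knockout replicate 2 exceeded all other arrays by at least 1 on the log2 scale in 111 probe sets, 30 of them in the list above, and lay that far below all others in 13. Wild-type replicate 4 exceeded all others so in 45 probe sets and each remaining array in 17 or fewer. The genes named here were chosen after their values were seen. Scd2, a stearoyl-CoA desaturase that is low in adult mouse liver, was 12.24 in knockout replicate 2 and 5.32 to 6.45 in the other arrays. Afp, the fetal serum protein alpha-fetoprotein, was 8.62 against 4.32 to 5.36. Anxa13, an annexin of epithelia, was 9.33 against 4.64 to 6.16, and Lpl, lipoprotein lipase, was 11.50 against 7.69 to 9.60. Lcn2, an acute phase lipocalin, was 10.63 against 6.93 to 8.85. Esco2, a cohesin acetyltransferase of S phase that is outside the list, was 6.99 against 3.38 to 4.45.

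Several genes of mature hepatocytes, also chosen after their values were seen, were low in the same array. The 8 measured hepatocyte markers were not low there as a set, with a median gap of 0.04 to the other knockout arrays. Hsd3b5, a steroid dehydrogenase known as male-specific in mouse liver, was 9.34 in knockout replicate 2 and 11.76 to 13.00 in the other arrays. Cyp2c37, a P450 enzyme, was 9.60 against 11.67 to 12.28, Slco1a1, an organic anion transporter, was 9.26 against 10.84 to 11.70, and Mup3, a major urinary protein, was 13.25 against 14.19 to 14.44. Dio1, the deiodinase that activates thyroid hormone, was 7.25 in that array and 9.36 to 11.90 in the others, with knockout replicate 1 the next lowest. None of these 11 genes passed the limma test between genotypes.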
